A study of Sus scrofa with 12 samples.

Results

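Meiotic arrest of the oocyte is held by cyclic AMP and its kinase, protein kinase A (PKA), and 10 genes of this control were followed through in vitro maturation of porcine oocytes. The genes were listed by their role, though with earlier results of these data known. They were the receptor GPR3, the adenylyl cyclases ADCY3 and ADCY9, the phosphodiesterase PDE3A and the PKA catalytic subunits PRKACA and PRKACB. The others were the PKA regulatory subunits PRKAR1A, PRKAR2A and PRKAR2B, and the anchoring protein AKAP1. All 10 were found among the 31908 Ensembl identifiers of the files. RNA was sequenced from oocytes of pigs after 0h, 22h and 46h of maturation, with 4 libraries at each time and 20 oocytes in each library. The oocytes came from ovaries of prepubertal gilts, were matured inside their cumulus-oocyte complexes in medium with follicular fluid, epidermal growth factor, PMSG and HCG, and were stripped of cumulus cells before lysis. The description of the series places 0h at the germinal vesicle (GV) stage and 46h at metaphase II (MII). It gives the middle time as 24h, whereas the sample labels give 22h, which is used here. The paper collected oocytes by time of culture and describes no selection by nuclear stage. In earlier work that it cites, not all oocytes were at the stage named for their time, so a library may mix stages. Complexes were pooled, and no source says that the 4 libraries of a stage came from separate animals or cultures, so every p-value measures the spread between these libraries, which may be technical.

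In a fully grown oocyte, the orphan receptor GPR3 keeps the stimulatory G protein active, and adenylyl cyclases turn ATP into cyclic AMP. Cyclic AMP frees the catalytic subunits of PKA from their regulatory subunits, and the free kinase restrains CDK1 by way of the WEE1 and CDC25 families, so that the nucleus stays at prophase. PDE3A degrades cyclic AMP in the oocyte and is itself held back by cyclic GMP that enters from the cumulus cells. When that supply ends, PDE3A is released, cyclic AMP falls and meiosis resumes. Most of this control acts on proteins and second messengers, whereas the values here are RNA levels. The libraries were primed with oligo-dT, so a level stands for polyadenylated RNA only.

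Levels are given in FPKM, a level per transcript length within a library, as the authors deposited them. Such a level is relative to the other RNA of its library, and no added RNA standard is described. A rise or fall in FPKM therefore does not give the change in the amount of RNA per oocyte. A gene was tested with limma on log2(FPKM + 1) when its mean over the 12 libraries was at least 1 FPKM, which held for 7013 genes, and calls needed an adjusted p under 0.05 with a fold change over 1.5 (0.585 on the log2 scale). Of the 10 genes, ADCY3, PDE3A, PRKACB, PRKAR1A and PRKAR2B were tested in this way. GPR3, ADCY9, PRKACA, PRKAR2A and AKAP1 were under the filter and were compared by an exact two-sided permutation test, in which 4 against 4 libraries cannot give a p below 0.0286. Adjusted p-values below are from limma with Benjamini-Hochberg adjustment over all 7013 genes. In libraries of pooled oocytes, fewer cells carrying a transcript and a lower level of it in each cell cannot be told apart.

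The libraries carried the transcripts of oocytes. All 11 oocyte markers with an identifier were above 0 at every stage, and their summed FPKM ranged between 14460 and 20952 at 0h, between 18006 and 26089 at 22h and between 4689 and 8537 at 46h. ZP3, a protein of the zona pellucida, was between 1481 and 4337 FPKM at 0h and between 51.5 and 199 FPKM at 46h, and GDF9, a growth factor secreted by oocytes, was between 287 and 1451 FPKM and between 33.3 and 41.0 FPKM. ZP2, NLRP5, ZAR1, FIGLA and OOEP were also lower at 46h without overlap. BMP15 was between 1737 and 5492 FPKM at 0h and between 1980 and 2793 FPKM at 46h. It thus overlapped between these stages, as did KIT, ZP4 and MOS. Of 11 cumulus and granulosa markers, FST and VCAN were above 1 FPKM in every library and the other 9 never exceeded 0.26 FPKM. HAS2 was listed at 0 in 11 of 12 libraries, FSHR in 10, and PTX3 in 7, and CYP19A1 had no identifier. The summed FPKM of the 11 ran from 38.6 to 85.2 at 0h, from 51.4 to 81.7 at 22h and from 111 to 139 at 46h, of which VCAN alone made up to 136 FPKM. The sum of 9 theca, stroma, blood and endothelial markers was 11.8 to 18.1, 11.4 to 26.5 and 26.8 to 30.1 FPKM in the same order, and 4 of them were at 0 in all libraries. STAR and PECAM1 were above 1 FPKM in every library, and PECAM1, an endothelial adhesion molecule, lay between 7.71 and 10.9 FPKM in 0h libraries and between 21.0 and 23.6 FPKM in 46h libraries. The part of these marker lists in the results was not tested. Of the FPKM total, the proteins encoded in mitochondrial DNA held between 1.79% and 3.76% at 0h, between 8.06% and 12% at 22h and between 12.8% and 16.7% at 46h. Replicate 4 of 0h and replicate 1 of 22h stood apart, with a highest correlation of 0.970 and 0.967 to any other library of their stage.

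GPR3, the receptor that keeps the cyclases active, was at the edge of detection. It is listed as ENSSSCG00000003576 and lies on chromosome 6 from 84610107 to 84613202 on the plus strand of Sscrofa11.1 (coordinates here and below are those of RefSeq). It was listed at 0 in all 4 libraries of 0h. At 22h it was 0.26 FPKM in replicate 1 and listed at 0 in the other 3 libraries. At 46h it was 0.06 FPKM in replicate 1, 0.10 FPKM in replicate 3 and listed at 0 in the other 2. A value of 0 may be a failed estimate in these files, since ACTB, a gene every cell uses, was listed at 0 in 2 of 12 libraries and never exceeded 0.70 FPKM. The related receptor GPR12 reached 0.51 FPKM in replicate 4 of 0h and was listed at 0 in 4 of 12 libraries. No direction was read for GPR3 (exact test, p = 1 for 22h against 0h and for 46h against 22h, p = 0.429 for 46h against 0h).

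ADCY3 was the most abundant adenylyl cyclase at all 3 stages and did not pass in any comparison of the deposited FPKM. This membrane cyclase, listed as ENSSSCG00000008578 (chromosome 3, 113875005 to 113969053, plus strand), was 2.82, 3.12, 3.88 and 3.92 FPKM in replicates 1 to 4 of 0h. At 22h it was 2.87, 3.20, 2.27 and 2.16 FPKM. The 4 libraries of 46h were 3.28, 3.26, 3.31 and 3.32 FPKM. The 46h libraries were close to each other and all lay above the 22h libraries, while 0h overlapped with both. Its 0h mean was 3.44 ± 0.551 FPKM and its 46h mean 3.29 ± 0.0275 FPKM (SD, n = 4). On the log2 scale, the difference was -0.29 at 22h against 0h (95% interval -0.61 to 0.02, adjusted p = 0.146, limma), 0.25 at 46h against 22h (interval -0.06 to 0.57, adjusted p = 0.172) and -0.04 at 46h against 0h (interval -0.36 to 0.28, adjusted p = 0.834). The last difference turned with the scaling, to 0.22 with median-of-ratios scaling (adjusted p = 0.176) and to 0.65 with quantile normalization (adjusted p = 0.00106), where it passed, as did 46h against 22h (0.76, adjusted p = 0.00061).

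ADCY9, a further membrane cyclase, was under 1 FPKM in all 12 libraries and was lowest at 46h. It is listed as ENSSSCG00000007950 (chromosome 3, 38117211 to 38303600, plus strand) and was 0.25, 0.21, 0.30 and 0.67 FPKM at 0h. The 22h libraries were 0.20, 0.41, 0.45 and 0.25 FPKM, and those of 46h were 0.14, 0.11, 0.20 and 0.09 FPKM. All 4 libraries of 46h lay below all 4 of 0h, by 0.01 FPKM between the nearest pair, and touched the lowest of 22h. The difference in log2(FPKM + 1) at 46h against 0h was -0.25 (exact test, p = 0.0286), and the lack of overlap rests on that narrow gap. Without replicate 4 of 0h it was -0.14 (exact test, p = 0.0571, the smallest that 3 against 4 libraries can give), and with quantile normalization it was 0.03 (exact test, p = 0.629). At 22h against 0h it was -0.02 (exact test, p = 0.857).

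Beside them, the other 8 cyclases of the pathway list were all under the filter. ADCY10, the soluble cyclase, was between 0.29 and 0.72 FPKM over the 12 libraries, and ADCY1 was listed at 0 in all, which may be a failed estimate. Of the summed FPKM of 10 cyclases, ADCY3 took 74.0% ± 2.7 (SD, n = 4) at 0h, 73.1% ± 6.47 at 22h and 83.0% ± 4.69 at 46h. The lowest 46h share, 76.3%, lay below the highest 0h share, 77.6%. This ratio was chosen after the values were seen and is a description without a test.

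**Figure D1:**
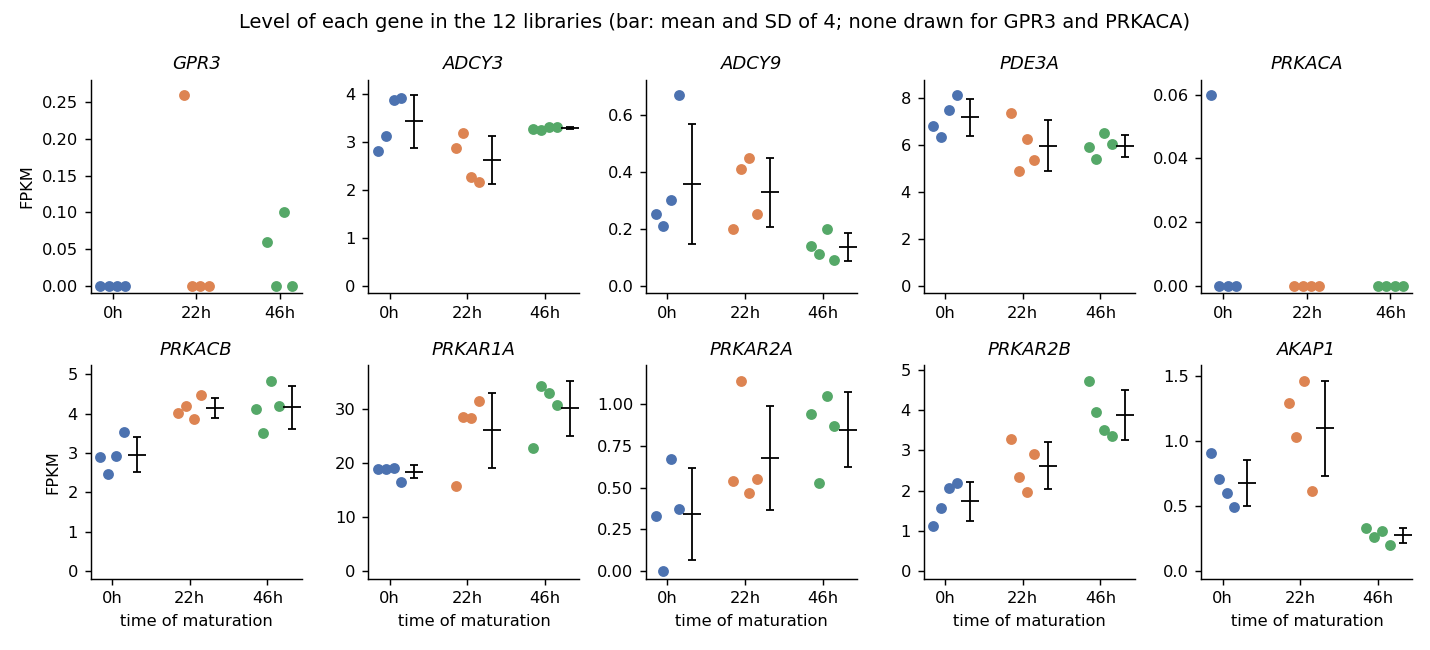
Level of each of the 10 genes in FPKM (vertical axes, from 0, a scale for each gene) in the 4 libraries of 0h, 22h and 46h, 1 point per library, with the mean and SD of 4 beside them except for GPR3 and PRKACA, which are mostly listed at 0. PRKAR1A and PRKAR2B lie higher at 46h than at 0h with no overlap, and ADCY9 and AKAP1 lie lower.

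PDE3A, the cyclic AMP phosphodiesterase through which meiosis resumes, kept a level between 4.89 and 8.14 FPKM in every library. It is listed as ENSSSCG00000028662 (chromosome 5, 52413503 to 52737771, minus strand). The 0h libraries were 6.81, 6.34, 7.49 and 8.14 FPKM, the 22h libraries 7.37, 4.89, 6.25 and 5.35 FPKM, and the 46h libraries 5.91, 5.39, 6.50 and 6.06 FPKM. All stages overlapped. Means with SD (n = 4) were 7.20 ± 0.787 FPKM for 0h, 5.97 ± 1.09 FPKM for 22h and 5.97 ± 0.458 FPKM for 46h. PDE3A did not pass at 22h against 0h (log2 fold change -0.24, 95% interval -0.57 to 0.08, adjusted p = 0.238, limma), at 46h against 22h (0.01, interval -0.31 to 0.33, adjusted p = 0.957) or at 46h against 0h (-0.23, interval -0.56 to 0.09, adjusted p = 0.197). The sign at 46h against 0h depended on the scaling of the libraries, as median-of-ratios scaling gave 0.05 and quantile normalization 0.44.

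Set against the cyclases within each library, which needs no scaling between libraries, PDE3A was 1.92 ± 0.206 times the sum of ADCY3 and ADCY9 at 0h, 2.07 ± 0.481 times at 22h and 1.74 ± 0.106 times at 46h (SD, n = 4). The ranges were 1.77 to 2.22, 1.35 to 2.4 and 1.60 to 1.85, and all overlapped.

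PDE3A was not the most abundant phosphodiesterase. PDE8A and PDE8B, which hydrolyse cyclic AMP with high affinity, exceeded it in every library, and the 2 moved in opposite directions. PDE8B fell from 25.0, 23.6, 23.4 and 20.1 FPKM at 0h to 14.6, 12.6, 12.4 and 12.9 FPKM at 22h, and was 14.1, 14.3, 12.4 and 16.1 FPKM at 46h. Every library of 22h and of 46h lay below every library of 0h, with log2 fold changes against 0h of -0.76 (adjusted p = 0.00108, limma) and -0.66 (adjusted p = 0.000919). The call at 46h was lost with median-of-ratios scaling (-0.35, adjusted p = 0.0767) and with quantile normalization (-0.09, adjusted p = 0.596). PDE8A rose from 10.9, 10.3, 12 and 11.5 FPKM at 0h to 21.1, 18.3, 27.8 and 20.4 FPKM at 46h (log2 fold change 0.90, adjusted p = 0.000211). At 22h PDE8A was 16.4, 17.5, 13.8 and 19.0 FPKM, above all 0h libraries but under the fold threshold (0.53, adjusted p = 0.0212).

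Within each library the ratio of PDE8A to PDE8B lay between 0.434 and 0.575 at 0h, between 1.11 and 1.48 at 22h and between 1.27 and 2.24 at 46h. PDE8B thus exceeded PDE8A in all 4 libraries of 0h, and PDE8A exceeded PDE8B in all 8 later libraries. PDE3A took 14.8% ± 1.3 (SD, n = 4) of the summed FPKM of 16 cyclic AMP phosphodiesterases at 0h, 14.2% ± 2.01 at 22h and 12.3% ± 0.226 at 46h. The 46h shares, up to 12.6%, lay below the lowest 0h share of 13.6%. These 2 ratios were also chosen after the values were seen and carry no test.

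**Figure D2:**
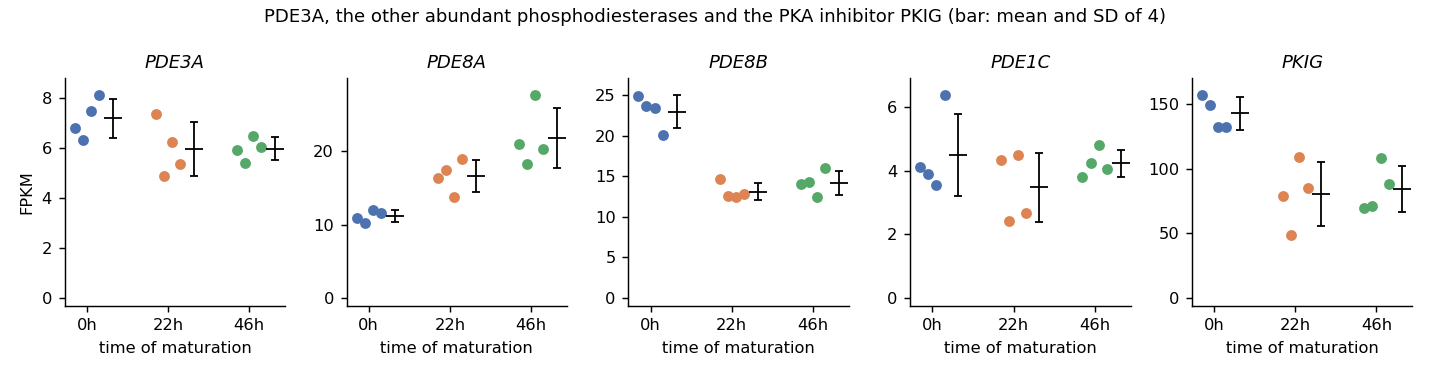
Level in FPKM (vertical axes from 0, a scale for each gene) of PDE3A, PDE8A, PDE8B, PDE1C and the PKA inhibitor PKIG in the 4 libraries of each stage, 1 point per library, with mean and SD of 4. PDE8B and PKIG are lower in all 8 later libraries than in all 4 of 0h, PDE8A is higher, and PDE3A overlaps between stages.

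Of the catalytic subunits of PKA, PRKACB was measured in every library, whereas PRKACA was mostly listed at 0, which may be a failed estimate as for ACTB above. PRKACA (ENSSSCG00000013771, chromosome 2, 65074876 to 65095564, plus strand) was 0.06 FPKM in replicate 1 of 0h and listed at 0 in the other 11 libraries. The related kinase PRKX never exceeded 0.15 FPKM. PRKACB (ENSSSCG00000040920, chromosome 6, 129520397 to 129636207, minus strand) was 2.9, 2.47, 2.92 and 3.54 FPKM at 0h. It was 4.03, 4.20, 3.87 and 4.47 FPKM at 22h and 4.12, 3.51, 4.84 and 4.19 FPKM at 46h. All 22h libraries lay above all 0h libraries, and the lowest 46h library, 3.51 FPKM, fell just under the highest of 0h.

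PRKACB averaged 2.96 ± 0.440 FPKM in 0h oocytes, 4.14 ± 0.257 FPKM in 22h oocytes and 4.17 ± 0.544 FPKM in 46h oocytes (SD, n = 4). It did not pass in any comparison. At 22h against 0h the log2 fold change was 0.38 (95% interval 0.08 to 0.69, adjusted p = 0.0527, limma), and at 46h against 0h it was 0.38 (interval 0.08 to 0.69, adjusted p = 0.0284), which is under the fold threshold. The latter passed with median-of-ratios scaling (0.65, adjusted p = 0.000387) and with quantile normalization (1.06, adjusted p = 6.13e-06). Between 22h and 46h the difference was 0.00 (interval -0.30 to 0.30, adjusted p = 0.993).

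The regulatory subunits bind and silence the catalytic subunits, and they differ at the site that enters the catalytic cleft. The type I subunit PRKAR1A carries alanine there and acts as a pseudosubstrate, whereas the type II subunits PRKAR2A and PRKAR2B carry serine, which PKA can phosphorylate. The coding sequence around this site is shown for the 3 genes because it separates the type I from the type II members whose levels are compared below. Each line gives 45 bases, 5′ to 3′ on the coding strand, from the RefSeq annotation of Sscrofa11.1, with the codon of that residue in capitals. It is residue 98 (alanine) of 380 in PRKAR1A, at chr12:11672407-11672451 within 1 exon, residue 96 (serine) of 401 in PRKAR2A, at chr13:31461448-31473904 across a splice junction, and residue 113 (serine) of 417 in PRKAR2B, at chr9:106873891-106916307, also across a junction. PRKAR1A and PRKAR2A lie on the minus strand and PRKAR2B on the plus strand.
PRKAR1A: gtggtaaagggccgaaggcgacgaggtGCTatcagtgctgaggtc
PRKAR2A: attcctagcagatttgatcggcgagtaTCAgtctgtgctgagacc
PRKAR2B: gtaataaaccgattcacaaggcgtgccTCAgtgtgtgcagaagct

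PRKAR1A, the type I subunit with the GCT codon, was the most abundant of the 10 genes in every library, and its FPKM rose by 46h. It is listed as ENSSSCG00000017259 (chromosome 12, 11662344 to 11681490, minus strand) and was 19.0, 19.0, 19.2 and 16.6 FPKM at 0h. The 22h libraries were 15.8, 28.5, 28.4 and 31.6 FPKM, and those of 46h were 22.9, 34.3, 33.0 and 30.7 FPKM. Replicate 1 of 22h, a library that stood apart, lay below all 0h libraries, whereas the other 3 of 22h and all 4 of 46h lay above them. The stage means in FPKM were 18.4 ± 1.24, then 26.1 ± 6.99 and then 30.2 ± 5.11 (SD, n = 4).

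For 46h against 0h, PRKAR1A had a log2 fold change of 0.67 (standard error 0.207, 95% interval 0.23 to 1.11, adjusted p = 0.0114, limma), which passed. With TPM it was 0.57 (adjusted p = 0.0379) and fell under the fold threshold. At 22h against 0h it was 0.44 (interval -0.01 to 0.88, adjusted p = 0.122) and did not pass. Without replicate 1 of 22h that difference was 0.65 (adjusted p = 0.0100) and passed. The step from 22h to 46h was 0.23 (interval -0.21 to 0.68, adjusted p = 0.373).

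PRKAR2B, a type II subunit with the TCA codon, showed the largest log2 fold change of the 5 tested genes at 46h against 0h. It is listed as ENSSSCG00000037706 (chromosome 9, 106851044 to 106957519, plus strand) and was 1.13, 1.58, 2.06 and 2.19 FPKM at 0h. It was 3.28, 2.33, 1.96 and 2.91 FPKM at 22h and 4.73, 3.96, 3.50 and 3.35 FPKM at 46h. The 46h libraries were higher than every one of 22h and of 0h, and those of 0h and 22h overlapped. In order of stage, mean FPKM was 1.74 ± 0.484, 2.62 ± 0.589 and 3.89 ± 0.620 (SD, n = 4). By 46h the change from 0h was 0.84 on the log2 scale (standard error 0.176, interval 0.47 to 1.22, adjusted p = 0.000781, limma), and PRKAR2B passed there under each scaling of the libraries, with values from 0.83 to 1.52. The steps of 0.41 to 22h (adjusted p = 0.0949) and of 0.44 from 22h to 46h (adjusted p = 0.0530) did not pass.

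PRKAR2A, the other type II subunit, was near or under 1 FPKM. The files list it as ENSSSCG00000011363 (chromosome 13, 31427786 to 31517005, minus strand) and was 0.33, 0, 0.67 and 0.37 FPKM at 0h. The 22h libraries were 0.54, 1.14, 0.47 and 0.55 FPKM, and the 46h libraries were 0.94, 0.53, 1.05 and 0.87 FPKM. All stages overlapped. The difference in log2(FPKM + 1) was 0.33 at 22h against 0h (exact test, p = 0.171), 0.15 at 46h against 22h (exact test, p = 0.457) and 0.48 at 46h against 0h (exact test, p = 0.0571).

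Within each library PRKAR1A made up most of the regulatory subunit RNA. Of the summed FPKM of PRKAR1A, PRKAR2A and PRKAR2B, PRKAR1A took 89.8% ± 3.21 (SD, n = 4) at 0h, 88.0% ± 5.11 at 22h and 86.1% ± 3.98 at 46h. PRKAR2B took 8.52% ± 2.51, 9.67% ± 4.76 and 11.4% ± 3.45 in that order. The 2 lowest PRKAR1A shares, 80.5% and 80.1%, were those of replicate 1 of 22h and replicate 1 of 46h. All stages overlapped in both shares. PRKAR1B, the fourth regulatory gene, was 0.08 FPKM in 1 library and listed at 0 in the other 11, which may be a failed estimate.

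In order of stage, the summed regulatory RNA was 20.5 ± 1.14, 29.4 ± 6.72 and 34.9 ± 4.55 FPKM, and the summed catalytic RNA was 2.97 ± 0.439, 4.14 ± 0.257 and 4.17 ± 0.544 FPKM (SD, n = 4). Their ratio within a library was 7.03 ± 1.23 at 0h, 7.07 ± 1.47 at 22h and 8.51 ± 1.78 at 46h. The ranges of the ratio were 5.40 to 8.33, 4.87 to 7.96 and 6.92 to 11, and all overlapped. The catalytic sum is that of PRKACB alone in 11 of 12 libraries, so it is too low, and the ratio too high, where the 0 of PRKACA is a failed estimate. These ratios are given without a test.

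**Figure D3:**
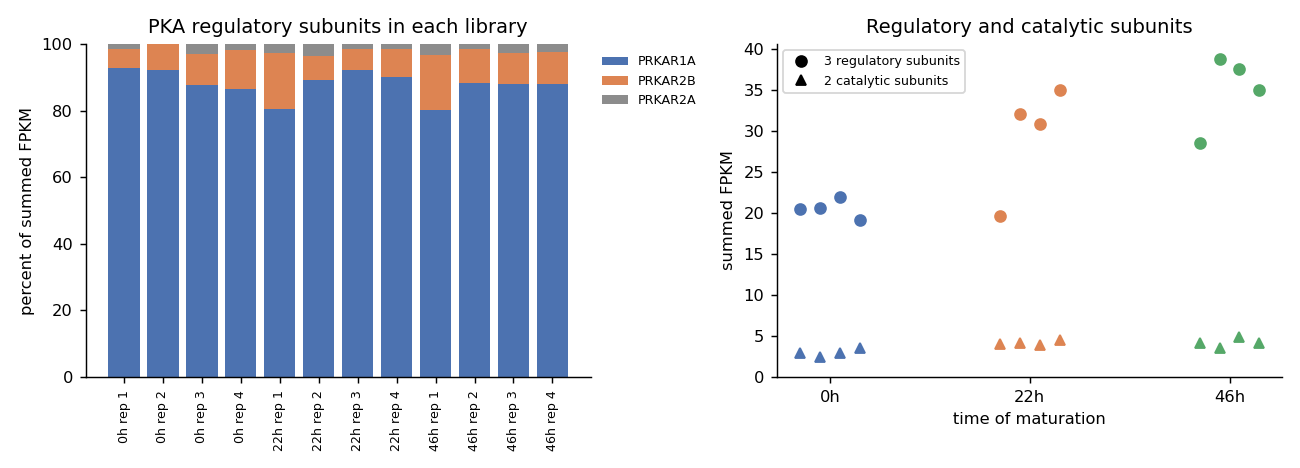
Left, the share of each regulatory subunit gene in their summed FPKM (percent, from 0 to 100) in each of the 12 libraries, and right, the summed FPKM of the 3 regulatory genes (circles) and the 2 catalytic genes (triangles) in each library by stage. PRKAR1A takes between 80.1% and 92.8% of the regulatory RNA, and the regulatory sum lies above the catalytic sum as listed, which holds PRKACA at 0 in 11 of 12 libraries.

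AKAP1, which tethers PKA to the outer mitochondrial membrane, was lowest at 46h. Its identifier is ENSSSCG00000034994 (chromosome 12, 33396473 to 33410395, plus strand) and was 0.91, 0.71, 0.60 and 0.49 FPKM at 0h. It was 1.29, 1.03, 1.46 and 0.62 FPKM at 22h and 0.33, 0.26, 0.31 and 0.20 FPKM at 46h. Each 46h library was lower than the 8 earlier ones, and 0h and 22h overlapped. Averaged by stage, AKAP1 was 0.678 ± 0.179, 1.10 ± 0.366 and 0.275 ± 0.0580 FPKM (SD, n = 4) in order of time. The difference in log2(FPKM + 1) was -0.70 at 46h against 22h and -0.39 at 46h against 0h (exact test, p = 0.0286 each, the smallest it can give), and 0.31 at 22h against 0h (exact test, p = 0.0857). With quantile normalization the difference at 46h against 0h was -0.02 (exact test, p = 0.857), so it did not hold under that scaling. In all, 15 exact tests were run on the 5 genes under the filter, without adjustment, and 3 of them gave the smallest p.

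Counted over the comparisons, 0 of the 5 tested genes passed at 22h against 0h, where 7.84% of all genes tested were higher and 18.9% lower. At an unadjusted p under 0.05, PRKACB and PRKAR2B were higher there, since their 95% intervals lay above 0. Between 22h and 46h again 0 of 5 passed, beside 9.87% of all genes higher and 32.6% lower, and the interval of PRKAR2B alone lay above 0. At 46h against 0h 2 of 5 passed, PRKAR1A and PRKAR2B, both higher, beside 16.8% of all genes higher and 39.1% lower. Among all genes the split of passing genes at 46h against 0h, 1179 higher and 2743 lower, became 1899 and 2397 with median-of-ratios scaling and 2877 and 1789 with quantile normalization.

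The stages did not overlap and the later was higher for 1 tested gene at 22h against 0h (PRKACB), beside 10.3% of all genes tested. The same held for 2 at 46h against 22h (ADCY3 and PRKAR2B), beside 13.2%, and for 2 at 46h against 0h (PRKAR1A and PRKAR2B), beside 18.2%. Of the 5 genes under the filter, AKAP1 was lower without overlap at 46h against 22h. ADCY9 and AKAP1 were so at 46h against 0h. Among all genes under 1 FPKM with a value above 0 in a library compared, the shares lower without overlap were 9.47% and 15.9%. The comparisons share stages and are not independent of each other. With 5 genes tested, these counts are a description and show nothing particular to the group.

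The median log2 fold change of the 5 tested genes was 0.38 at 22h against 0h, 0.23 at 46h against 22h and 0.38 at 46h against 0h. The median of all genes tested was -0.00, -0.26 and -0.25 in the same order. That median at 46h against 0h was -0.35 with TPM, -0.20 with TPM without the mitochondrially encoded genes, 0.37 with quantile normalization and 0.00 with median-of-ratios scaling. Under each of these scalings PRKAR1A, PRKAR2B and PRKACB lay above the median of all genes by more than 0.6 on the log2 scale, and PDE3A lay within 0.1 of it.

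**Figure D4:**
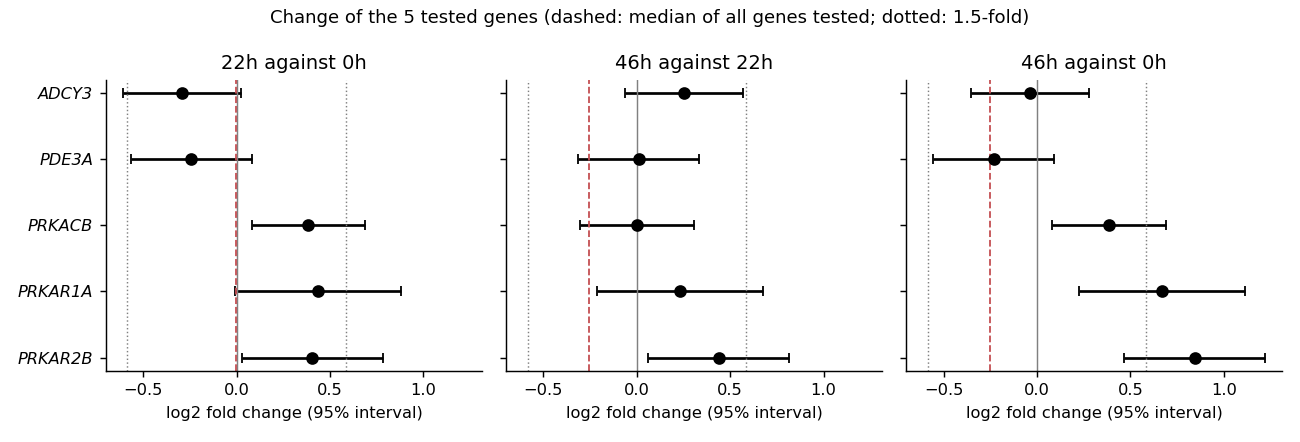
Log2 fold change with its 95% interval (horizontal axes) of the 5 genes tested with limma in each comparison of 4 against 4 libraries, with the median of all 7013 genes tested (dashed) and a fold change of 1.5 (dotted). PRKAR1A and PRKAR2B lie past the dotted line at 46h against 0h, at 0.67 and 0.84.

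**Figure D5:**
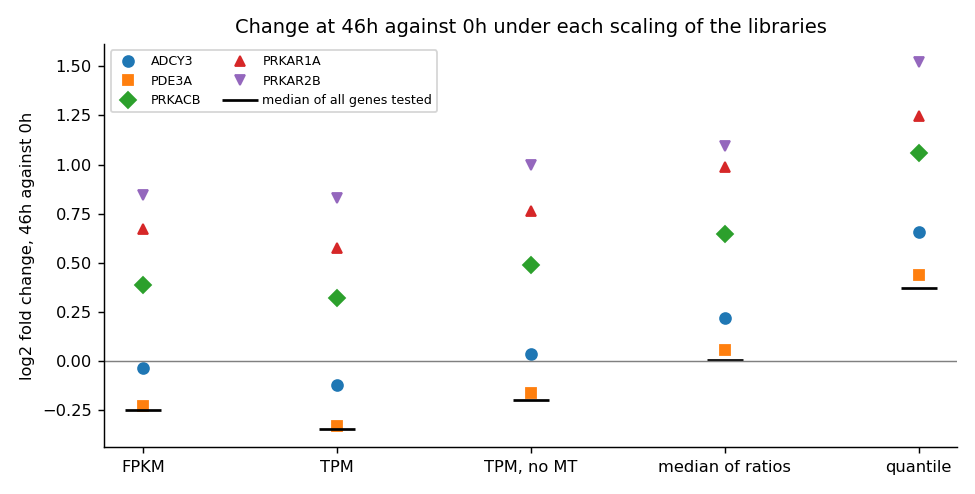
Log2 fold change at 46h against 0h (vertical axis) of the 5 tested genes under 5 scalings of the libraries (horizontal axis), with the median of all genes tested as a bar. PRKAR2B runs from 0.83 to 1.52 and stays highest, while ADCY3 and PDE3A change sign.

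FPKM is a level per length, so the listed values can be set in order within a stage. A low place in this order may be a failed estimate, as for ACTB above. At 0h PRKAR1A was first, PDE3A second, and ADCY3 and PRKACB followed with overlapping libraries, then PRKAR2B, while AKAP1, ADCY9 and PRKAR2A overlapped at the lower end. At 22h PRKAR1A, PDE3A and PRKACB came in that order without overlap, ADCY3 and PRKAR2B overlapped behind them, and AKAP1 and PRKAR2A overlapped above ADCY9. At 46h PRKAR1A and PDE3A kept their places, PRKACB and PRKAR2B overlapped behind them, and ADCY3, at up to 3.32 FPKM, lay just below the lowest PRKAR2B library of 3.35 FPKM. PRKAR2A came next and lay above AKAP1 and ADCY9, which touched at 0.20 FPKM. GPR3 and PRKACA had the lowest listed means at each stage. PRKAR1A had a higher mean than 66.9% of all genes tested at 0h and than 80.8% at 46h. For PRKAR2B these percentages were 10.2 and 45.9, for PRKACB 23.7 and 47.2, for ADCY3 28.1 and 42.5, and for PDE3A 46.7 and 54.7.

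The other genes of the pathway were taken from a list of 85, of which 78 had an identifier and 30 were tested. Past the thresholds were 0 higher and 2 lower at 22h against 0h, 3 higher and 8 lower at 46h against 22h, and 5 higher and 12 lower at 46h against 0h. All genes tested passed at 7.84% higher and 18.9% lower, 9.87% and 32.6%, and 16.8% and 39.1% in that order, and these counts are read against those shares and show nothing particular to the list. The median log2 fold change of the 30 was 0.10, -0.09 and -0.30 in that order, beside -0.00, -0.26 and -0.25 for all genes tested. Without replicate 4 of 0h, 5 genes passed at 22h against 0h in place of 2. Over all genes tested, the 550 higher and 1323 lower there became 862 and 1310 in that fit. The 2 that passed at 22h were PDE8B, given above, and PKIG.

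PKIG, an inhibitor protein that binds the free catalytic subunit, was the most abundant gene of a PKA subunit or inhibitor on either list. It was 158, 150, 132 and 132 FPKM at 0h, 79.3, 48.9, 109 and 84.8 FPKM at 22h, and 69.9, 70.8, 108 and 88.5 FPKM at 46h. Every 0h library lay above every later library. PKIG fell by 0.87 on the log2 scale at 22h (adjusted p = 0.00931, limma) and by 0.77 at 46h (adjusted p = 0.00773), each time relative to 0h. The call at 46h was lost with median-of-ratios scaling (-0.45, adjusted p = 0.0935) and with quantile normalization (-0.42, adjusted p = 0.0996), whereas that at 22h was kept. In a ratio chosen after the values were seen, PKIG was 37.4 to 60.6 times the summed catalytic RNA as listed at 0h, 11.6 to 28.2 times at 22h and 17.0 to 22.3 times at 46h. The other inhibitors were low, PKIA at up to 0.16 FPKM and PKIB at up to 1.38 FPKM.

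The counts by role that follow are for 46h against 0h, where 16.8% of all genes tested were higher and 39.1% lower, and none of them is read as particular to its role. Among the receptors and G proteins, 4 genes were tested and 1 was lower. GNAI3, an inhibitory G protein subunit, fell from 32.7 ± 12 FPKM to 19.0 ± 2.83 FPKM (SD, n = 4, log2 fold change -0.69, adjusted p = 0.0375, limma), with overlapping libraries. Its call was lost in 10 other fits, with values from -0.69 to -0.11, among them those without replicate 1 or 2 of 0h and without replicate 1, 2 or 3 of 46h. Of 6 phosphodiesterase genes tested, 1 was higher and 2 lower. Besides PDE8A and PDE8B this was PDE6D, which fell from 45.8 ± 4.06 FPKM to 6.58 ± 2.24 FPKM (-2.67, adjusted p = 7.91e-08). PDE6D is named a phosphodiesterase subunit but is a carrier of prenylated proteins and hydrolyses no cyclic nucleotide. Among 7 anchoring proteins tested, AKAP11 rose from 6.06 ± 1.09 FPKM to 11.7 ± 3.09 FPKM (0.83, adjusted p = 0.00219). AKAP10, a mitochondrial anchor, fell from 3.21 ± 0.673 FPKM to 1.68 ± 0.354 FPKM (-0.65, adjusted p = 0.00520). With median-of-ratios scaling AKAP10 did not pass (-0.42), and its sign turned with quantile normalization (0.03, adjusted p = 0.885). Without replicate 1 of 0h or without replicate 3 of 46h its change was -0.57 and under the fold threshold. EZR, a linker of actin to the membrane that also binds PKA, fell from 51.9 ± 19.6 FPKM to 9.49 ± 2.54 FPKM (-2.29, adjusted p = 5.76e-06).

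Of 2 effector and CREB family genes tested, CREBBP, a coactivator of CREB, fell from 1.88 ± 0.626 to 0.720 ± 0.193 FPKM by 46h (log2 fold change against 0h of -0.73, adjusted p = 0.00617, limma). That call was lost with median-of-ratios scaling, at -0.56, and with quantile normalization, at -0.02. Of the 9 tested genes of the CDK1 machinery downstream of PKA (kinases, phosphatases, cyclins and ENSA), 3 were higher and 5 lower at 46h against 0h, and 0 passed at 22h against 0h. Of the 3 higher, WEE2 lost its call in 9 of 23 other fits. CDK1, the kinase that drives entry into M phase, was 100.2 ± 29.3, 84.7 ± 13.5 and 0.275 ± 0.0526 FPKM in order of stage (-6.26 against 0h, adjusted p = 1.3e-11). CDC25B, the phosphatase that activates CDK1, fell from 37.9 ± 30.6 to 0.230 ± 0.11 FPKM between 0h and 46h (-4.68, adjusted p = 4.78e-07). At 46h both are under the pseudocount of 1, which sets the size of these values, and with a pseudocount of 0.1 they were -8.03 for CDK1 and -6.58 for CDC25B. CCNB2, a cyclin partner of CDK1, fell from 434.9 ± 172 FPKM to 24.7 ± 3.62 FPKM (-3.98, adjusted p = 2.68e-08). In the group of cyclic GMP supply and junction genes, only GJC1 was tested and it did not pass (-0.30, adjusted p = 0.398). GJC1 is a connexin of cell junctions. NPPC, the ligand made by granulosa cells, and GJA4, the connexin of the oocyte surface, were listed at 0 in all 12 libraries. These values may be failed estimates, as for ACTB above, and do not show that the RNA was absent.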

How the data were processed

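Libraries of 20 denuded oocytes were made with SMART-Seq2. The authors trimmed reads with Trim Galore, aligned them to Sscrofa11 with STAR and made the deposited FPKM values with RSEM, which shares reads between similar genes by an estimate. Each file lists 31908 Ensembl identifiers with 2 decimals. Of these, 15029 were named from the annotation of RefSeq on Sscrofa11.1, and the coordinates and sequences are from that build. No counts were used here, so the depth of each library is unknown and no counting interval or floor is given. Steps of the low values did not give whole reads. Total FPKM was 697468 to 802184, and 14275 identifiers were at 0 throughout.

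Genes that averaged 1 FPKM or more were fitted as log2(FPKM + 1), which understates the change of low genes, with limma 3.58.1 in R 4.3.3 (lmFit, eBayes with trend, stage as the only factor, 12 libraries, two-sided). The thresholds follow the study, which tested counts. Genes under the filter were compared over the 70 arrangements of 4 against 4 libraries. The fit was tested on simulated data. Tables and figures used pandas 2.3.3, numpy 2.4.6, scipy 1.17.1 and matplotlib 3.10.9 under Python 3.11.15.

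The 10 genes, the pathway list and 3 marker lists were chosen with earlier results of these data known. Named are all 10 genes and, per role of the pathway list, up to 3 passing genes with the largest absolute change at 46h against 0h. Other genes named beside them (GPR12, ADCY1, ADCY10, PRKX, PRKAR1B, PKIA, PKIB, GJC1, NPPC and GJA4) and ACTB were chosen after their values were seen. So were PDE1C, CDC25C and RGS2. In the pathway list, GPR6, GNAS, AKAP2, AKAP13, AKAP14, CREM and ARPP19 had no identifier. Alternatives were a pseudocount of 0.1, no filter, a filter of 5 FPKM, 4 other scalings, the 2 stages alone, no trend, the replicate block, a fold of 2 and each library left out. A fit without the 2 libraries that stood apart was added after seeing the data.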

Additional observations from a re-analysis of the deposited data

Results flagged for a closer look

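In 9 of 114 groups of 4 libraries, the highest or lowest library lay farther from the others than Dixon's critical value allows. The groups were the 10 genes, the passing genes of the pathway list with CDC25C, and the shares, ratios and sums of PKA, cyclase and phosphodiesterase genes, each by stage. Chance gives about 1 in 20 only for independent, normally distributed values, so the 9 are not read against that rate. A group with 1 library above 0 is flagged whatever its value, as with GPR3 and PRKACA here. The shares of PRKAR1A and PRKAR2B are parts of the same sum. GPR3 at 22h was 0.26 FPKM in replicate 1 and listed at 0 in the other 3. PRKACA at 0h was 0.06 FPKM in replicate 1 and listed at 0 in the other 3. PRKAR1A at 0h was lowest in replicate 4, at 16.57 FPKM, beside 18.95 to 19.18 FPKM. PRKAR2A at 22h was highest in replicate 2, at 1.14 FPKM, beside 0.47 to 0.55 FPKM. The share of PRKAR1A in the regulatory subunits at 46h was lowest in replicate 1, at 80.12%, beside 87.87% to 88.41%, and that of PRKAR2B was highest there, at 16.58%, beside 9.33% to 10.2%. The ratio of regulatory to catalytic RNA at 22h was lowest in replicate 1, at 4.871, beside 7.621 to 7.956. PDE6D at 22h was lowest in replicate 1, at 41.94 FPKM, beside 60.1 to 62.3 FPKM. ENSA at 22h was highest in replicate 3, at 12.94 FPKM, beside 8.09 to 8.48 FPKM. Replicate 4 of 0h and replicate 1 of 22h are the libraries that stood apart over all genes.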

How the results depend on the processing

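The 2 passing genes at 46h against 0h became 1 with a filter of 5 FPKM (which leaves out PRKAR2B), 1 with TPM, 3 with median-of-ratios scaling, 4 with quantile normalization and 0 with a fold change over 2. Over all genes tested, 1006 were higher and 2929 lower there with TPM, and 971 and 1575 of 4144 with the filter of 5 FPKM. The 0 at 46h against 22h became 3 with quantile normalization, 1 with median-of-ratios scaling and 1 with no filter. Over all genes tested, the 692 higher and 2283 lower there became 1971 and 1340 with quantile normalization. They became 1344 and 1845 with median-of-ratios scaling, and 600 and 2175 of 17633 with no filter. The 0 at 22h against 0h became 1 without the 2 libraries that stood apart, and was 0 to 1 with each library left out, the 1 being PRKAR1A without replicate 1 of 22h. Over all genes tested, the 550 higher and 1323 lower there became 879 and 1323 without the 2 libraries. Without replicate 1 of 22h they became 624 and 1352. For the pathway list, the 2 at 22h became 4 without the 2 libraries that stood apart and 0 with a fold change over 2, and were 2 to 5 with each library left out. The 11 at 46h against 22h became 17 with quantile normalization, and the 17 at 46h against 0h became 10 with a fold change over 2.

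Changes of sign were seen in differences near 0 or across scalings. ADCY3 at 46h against 0h was 0.65 with quantile normalization, 0.22 with median-of-ratios scaling, 0.0323 with TPM without mitochondrially encoded genes, 0.0141 without the 2 libraries that stood apart, and -0.108 to 0.0141 with each library left out. ADCY9 at 22h against 0h was 0.0878 with quantile normalization, 0.00188 with TPM without mitochondrially encoded genes, 0.126 without the 2 libraries that stood apart, and -0.0759 to 0.0790 with each library left out, and at 46h against 0h it was 0.0286 with quantile normalization. PDE3A at 46h against 22h was -0.0685 with TPM and -0.0656 to 0.103 with each library left out, and at 46h against 0h it was 0.44 with quantile normalization and 0.0539 with median-of-ratios scaling. PRKACB at 46h against 22h was -0.0747 with TPM, -0.00858 without the 2 libraries that stood apart, and -0.0595 to 0.0648 with each library left out. The cause of these changes was not tested.

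The correlation of same-numbered replicates' deviations from their stage means was 0.0088 to 0.38 at 46h against 22h, over 0.1 in 3 of 4 pairs, and -0.47 to 0.08 in the other comparisons. Since not every pair was over 0.1 and no source ties the numbers to a shared origin, they were not taken as pairs. With the replicate block the counts of the 10 genes were 0, 0 and 2, and those of the pathway list 3, 11 and 15. Since depth is unknown, values under 1 FPKM rest on the spread of 4 libraries alone.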

Other observations

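The other passing genes of the CDK1 machinery downstream of PKA were named after their values were seen, and they did not move one way. CCNB1, the cyclin partner of CDK1, was 877, 827, 503 and 254 FPKM in replicates 1 to 4 of 0h and 1081, 1185, 1183 and 1323 FPKM at 46h, with no overlap (log2 fold change 1.11, adjusted p = 0.0124, limma). It thus rose while CCNB2, its close relative, and CDK1 itself fell. Under 23 other fits its change ran from 0.73 to 1.44 and its call was kept. MASTL, the kinase that keeps the phosphatase PP2A-B55 in check during M phase, rose from 41.5 ± 13.2 FPKM to 83.3 ± 6.47 FPKM (SD, n = 4, 1.05, adjusted p = 0.0012, limma). ENSA, a substrate of MASTL beside ARPP19, which had no matched identifier, moved the other way, from 8.75 ± 1.20 FPKM to 1.79 ± 0.363 FPKM (-1.81, adjusted p = 5.76e-07). CDC25A, like CDC25B a phosphatase that activates CDK complexes, was 3.52 to 16.5 FPKM at 0h and 0.20 to 0.58 FPKM at 46h (-2.55, adjusted p = 3.34e-05, and -3.83 with a pseudocount of 0.1). CDC25C, between 7.28 and 13.9 FPKM over the 12 libraries, did not pass in any comparison. The calls of MASTL and ENSA at 46h against 0h were kept in 23 other fits and that of CDC25A in 22, as the filter of 5 FPKM leaves CDC25A out.

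WEE2, the oocyte kinase that inhibits CDK1 and is activated by PKA, was 2008, 1950, 950 and 222 FPKM at 0h and 1888, 3085, 3518 and 3070 FPKM at 46h, with overlap (1.56, adjusted p = 0.0406, limma). That call was lost in 9 of 23 other fits, among them without replicate 3 or 4 of 0h (0.86 without the latter, adjusted p = 0.113), without replicate 2 of 22h, without any of replicates 2, 3 and 4 of 46h, and with TPM (1.46, adjusted p = 0.0656). RGS2, a regulator of G protein signalling, rose from 551 ± 136 to 1124 ± 143 FPKM between 22h and 46h (SD, n = 4, 1.05 against 22h, adjusted p = 0.00112), and this was kept in 23 other fits. At 0h it was 774 ± 181 FPKM, so 22h had the lowest mean, and 46h against 0h overlapped and did not pass (0.56, adjusted p = 0.0352).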
